A study of Homo sapiens with 48 samples.

Results

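The 4 libraries described here set the knockout of TIP60 directly against the knockout of EP400 in A382, an established human glioblastoma cell line grown as a culture. They were chosen by their labels, as the 2 sgTIP60 and the 2 sgEP400 columns of the deposited expression table, and are 4 of the 48 libraries of the study. The study disrupted subunits of the EP400/TIP60 chromatin complex with lentiviral guide RNAs and sequenced polyadenylated RNA 9 days after infection. The sgTIP60 group held 1 library for each of 2 guides against KAT5, the gene of TIP60, and the sgEP400 group held 1 library for each of 2 guides against EP400. The 2 libraries of sgNeg2, a guide used as a negative control in the same section of the table, are quoted as a level and do not enter the difference, although they, like the other groups of that section, add to the estimate of spread behind the standard errors. Every library came from the same line and the same day. The libraries of a target differ by guide, and no label says that further independent cultures were grown. A p-value thus reflects the spread within groups, mostly between 2 guides of a target, pooled over the section, and part of it may be technical. The fit takes this spread as equal in all groups of the section. The standard errors therefore do not follow the wider gaps between the TIP60 guides that are described below. Whether the infected cells were a pool or a clone is not given in the sources used here.

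TIP60 and EP400 are the catalytic subunits of the same nuclear complex. TIP60 is a lysine acetyltransferase that acetylates histones H4 and H2A, and EP400 is a SWI/SNF-type ATPase that exchanges histone H2A for the variant H2A.Z. The comparison asks where the RNA profile differs between loss of the acetyltransferase and loss of the exchange ATPase, in cells that otherwise carry the same complex.

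Antioxidant and iron storage genes, the retinol receptor gene STRA6, several keratin genes and MYC were higher in the TIP60 knockout than in the EP400 knockout. HOXB cluster genes, SREBF1 with several lipid synthesis genes, several chromatin remodelling ATPases, and the neural progenitor factor SOX2 were lower in the TIP60 knockout. SOX2 did not stand for its list: of 16 tested neural progenitor and glioma genes 2 fell and 2 rose. Testing covered 10981 genes that reached 1 FPKM in 2 or more of the 4 libraries, and 2429 of them differed at an adjusted p under 0.05, which is 22.1% of the genes tested. FPKM counts fragments per kilobase of transcript, scaled to the depth of the library, so levels can be set side by side between genes. Of these genes, 894 (8.14%) rose and 1535 (14.0%) fell in the TIP60 knockout relative to the EP400 knockout. Differences of at least 2-fold were called upward for 212 genes (1.93%) and downward for 181 genes (1.65%). The split depends on scaling: the median difference over all tested genes was -0.07 on the log2 scale, and after each library was shifted to a common median, 1286 genes were higher and 1187 lower, so that 52.0% of the calls lay upward in place of 36.8%. All differences below are TIP60 minus EP400 on the log2(FPKM + 1) scale, with the standard error of limma's fit, and adjusted p-values are Benjamini-Hochberg values over all tested genes. An exact permutation test of 2 libraries against 2 cannot go below p = 0.333 (two-sided), so single values were tested only through the fit across genes. In bulk RNA, fewer cells that express a gene and less RNA per cell cannot be told apart.

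The 2 targeted genes went the way of their labels. KAT5 had 7.28 and 7.48 FPKM in the TIP60 knockout, against 14.4 and 14.4 FPKM in the EP400 knockout and 15.2 and 13.5 FPKM with sgNeg2. Its level in the TIP60 knockout was 51.5% of the sgNeg2 level, and the difference from the EP400 knockout was -0.88 ± 0.12 (adjusted p = 0.000280). EP400 had 7.06 and 9.08 FPKM in the TIP60 knockout, against 4.37 and 4.04 FPKM in the EP400 knockout and 7.96 and 9.40 FPKM with sgNeg2. In the EP400 knockout it stood at 48.5% of the sgNeg2 level, and the difference was 0.79 ± 0.15 (adjusted p = 0.00203). Each knockout left the other's target near the control level: KAT5 was at 100.4% of sgNeg2 in the EP400 knockout, and EP400 was at 93.0% in the TIP60 knockout. Guide RNAs disrupt the coding sequence, so RNA levels do not measure how much protein remained.

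Among the other 17 subunits listed, MEAF6 was the only other called gene. MEAF6, a small subunit shared with other acetyltransferase complexes, fell in the TIP60 knockout, with 5.21 and 5.88 FPKM against 8.84 and 8.59 FPKM in the EP400 knockout (-0.57 ± 0.11, adjusted p = 0.00207); sgNeg2 stood at 8.18 and 8.26 FPKM. MRGBP, a subunit that binds MORF4-related proteins, had 24.9 and 25.4 FPKM in the TIP60 knockout and 41.5 and 39.8 FPKM in the EP400 knockout and missed the threshold (-0.67 ± 0.24, adjusted p = 0.0575). TRRAP, the large scaffold, had 5.73 and 10.1 FPKM in the TIP60 knockout and 11.4 and 10.4 FPKM in the EP400 knockout, where TIP60 guide 2 came close to the EP400 values (adjusted p = 0.122). BRD8, the bromodomain subunit, had 27.95 and 30.2 FPKM in the TIP60 knockout and 27.7 and 27.9 FPKM in the EP400 knockout (0.06 ± 0.15, adjusted p = 0.805).

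The libraries differed in spread. The typical gap between the 2 libraries of a group, which are 2 guides for each target but 2 replicates of 1 guide for sgNeg2, taken as the median absolute log2 gap over the tested genes, was 0.228 for TIP60, 0.0722 for EP400 and 0.164 for sgNeg2, and 108 genes differed by at least 1 log2 unit between the TIP60 guides, against 7 between the EP400 guides. Of the 894 genes that rose, 656 were higher with TIP60 guide 1 than with guide 2, and of the 1535 that fell, 742 were lower with guide 1. At 1 FPKM, a kilobase of transcript was covered by 13.2 and 16.6 fragments in the TIP60 libraries, 16.5 and 18.5 in the EP400 libraries and 8.77 and 15.9 in the sgNeg2 libraries, as read from the steps between low values. Between 10769 and 10822 genes reached 1 FPKM in the 4 libraries. The line carried VIM, a mesenchymal intermediate filament, at 6045 to 9068 FPKM and CD44 at 473 to 572 FPKM, while the glial marker GFAP and the neural stem cell marker NES stayed below 1 FPKM. Markers of endothelial and epithelial cells did not reach 1 FPKM in any of the 4 libraries, and among 12 immune markers 1 did. Of 9 neuron markers 5 did, with a summed level of 71.4 to 81.2 FPKM in the TIP60 libraries, 84.9 to 89.0 FPKM in the EP400 libraries and 90.0 to 97.8 FPKM in the sgNeg2 libraries. Among those 5, SLC17A7, a vesicular glutamate transporter, rose (0.72 ± 0.22, adjusted p = 0.0273) and 0 fell, and that call was lost when any library other than TIP60 guide 2 was left out.

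The 12 genes with the largest rise were led by STRA6 and UCN2. STRA6, the membrane receptor that takes up retinol, stood apart from the rest, with 127 and 86.5 FPKM in the TIP60 knockout, against 5.73 and 5.76 FPKM in the EP400 knockout and 1.34 and 1.89 FPKM with sgNeg2 (3.97 ± 0.30, adjusted p = 2.91e-06). Its mean level was 18.6 times that in the EP400 knockout. UCN2, a peptide of the corticotropin-releasing factor family, had 24.9 and 22.6 FPKM in the TIP60 knockout and 2.07 and 2.52 FPKM in the EP400 knockout (2.91 ± 0.23, adjusted p = 2.91e-06). GFPT2, an enzyme that feeds the hexosamine pathway, had 13.1 and 13.8 FPKM in the TIP60 knockout, 1.999 and 1.89 FPKM in the EP400 knockout and 0.429 and 0.656 FPKM with sgNeg2 (2.30 ± 0.19). In these 3 genes the groups lay far apart, with the TIP60 guides farther from each other for STRA6 than for UCN2 and GFPT2.

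For 8 of these 12 genes the level in the EP400 knockout was below 1 FPKM in both libraries, so they entered the test through the TIP60 libraries alone, as did 125 of the 894 genes that rose. SPP1, which encodes osteopontin, had 15.3 and 4.63 FPKM in the TIP60 knockout and 0.342 and 0.241 FPKM in the EP400 knockout (2.89 ± 0.32). CLDN2, a tight junction claudin, had 8.42 and 4.18 FPKM in the TIP60 knockout and 0.176 and 0.266 FPKM in the EP400 knockout (2.52 ± 0.20). ANKRD1, a widely used readout of YAP/TEAD activity, had 10.7 and 2.85 FPKM in the TIP60 knockout and 0.360 and 0.241 FPKM in the EP400 knockout (2.37 ± 0.35). The guides of TIP60 differed widely in these genes, guide 1 being the higher in each. UGT1A1, which conjugates bilirubin, showed the widest gap, with 9.53 and 1.63 FPKM in the TIP60 knockout and 0.0734 and 0 FPKM in the EP400 knockout, and it shares exons with the other UGT1A genes, so the reads may not be its own. The remaining 5 were the zinc finger gene ZBED2 (2.37 ± 0.26), the solute carrier SLC12A8 (2.33 ± 0.22), the hair keratin KRT81 (2.30 ± 0.31), the immune-type receptor SIRPB1 (2.22 ± 0.32) and the leucine-rich repeat gene LRTM1 (2.21 ± 0.19).

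**Figure D1:**
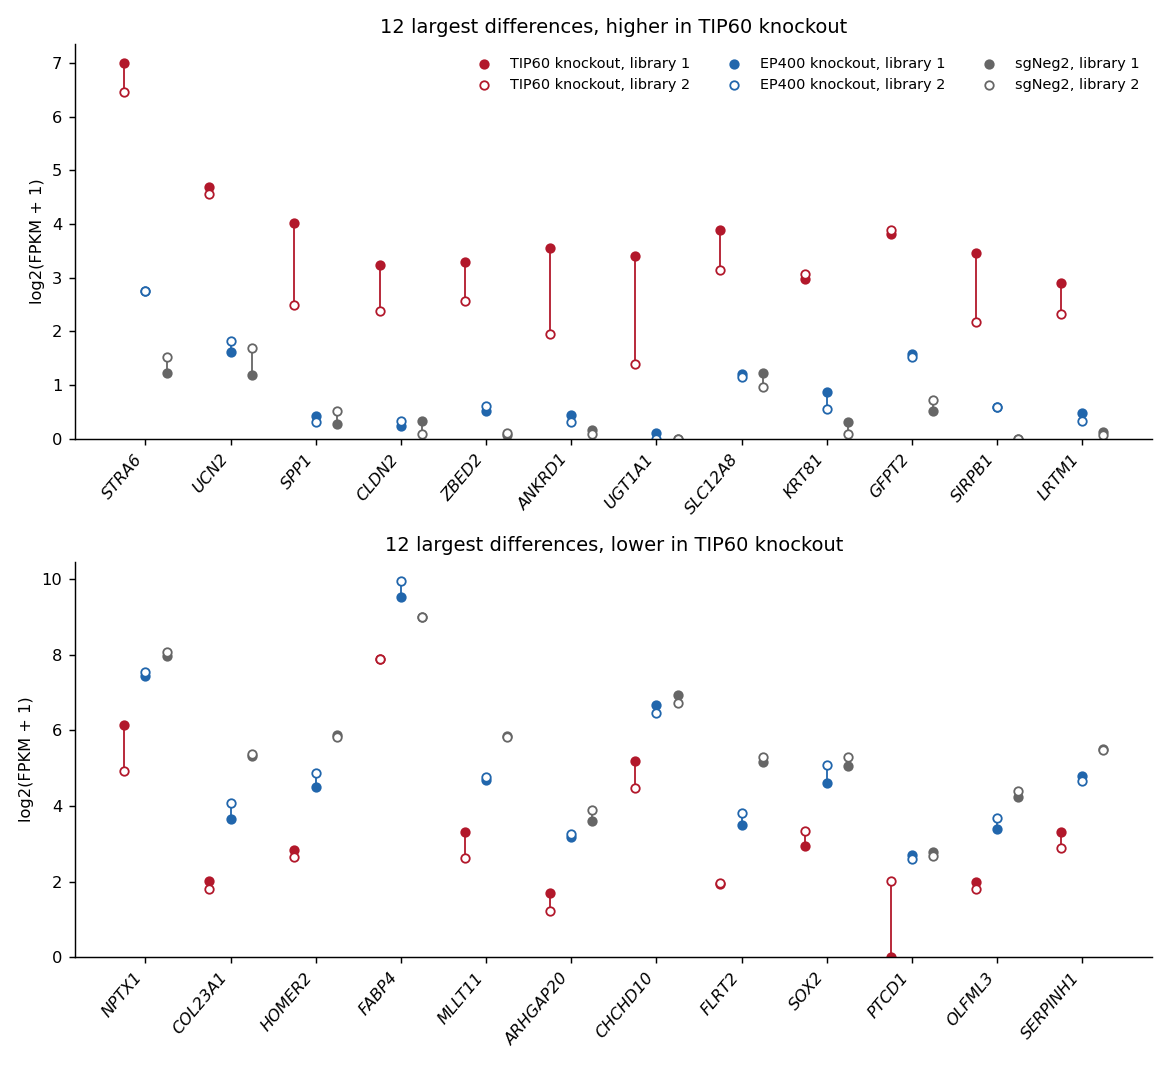
Level of the 12 genes with the largest rise (top) and the 12 with the largest fall (bottom) in the TIP60 knockout, as log2(FPKM + 1) on the vertical axis; each point is 1 library, filled for guide or replicate 1 and open for 2, and a line joins the 2 libraries of a group. The TIP60 libraries (red) of STRA6 stand at 127 and 86.5 FPKM, against 5.73 and 5.76 FPKM for EP400 (blue), and the TIP60 points of UGT1A1, ANKRD1 and PTCD1 lie far from each other.

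The 12 genes with the largest fall were led by NPTX1. NPTX1, the neuronal pentraxin, had 69.3 and 29.5 FPKM in the TIP60 knockout, against 173 and 186 FPKM in the EP400 knockout and 247 and 270 FPKM with sgNeg2 (-1.96 ± 0.29, adjusted p = 0.000432). SOX2, a transcription factor of neural progenitor and glioma stem-like cells, had 6.64 and 9.14 FPKM in the TIP60 knockout, against 23.6 and 32.8 FPKM in the EP400 knockout and 32.1 and 38.2 FPKM with sgNeg2 (-1.71 ± 0.27, adjusted p = 0.000598). The EP400 libraries of SOX2 overlapped the sgNeg2 libraries, and the TIP60 libraries lay below both pairs. FABP4, a fatty acid binding protein, was the 1 gene of these 12 for which sgNeg2 lay between the groups, at 510 and 508 FPKM, with 236 and 236 FPKM in the TIP60 knockout and 734 and 990 FPKM in the EP400 knockout (-1.85 ± 0.24, adjusted p = 0.000207).

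COL23A1, a transmembrane collagen, had 3.004 and 2.52 FPKM in the TIP60 knockout, 11.6 and 15.8 FPKM in the EP400 knockout and 39.1 and 40.5 FPKM with sgNeg2 (-1.95 ± 0.36). HOMER2, a scaffold of postsynaptic receptors, had 6.15 and 5.24 FPKM in the TIP60 knockout, 21.6 and 28.5 FPKM in the EP400 knockout and 58.2 and 56.1 FPKM with sgNeg2 (-1.95 ± 0.35). In both genes the EP400 knockout stood below sgNeg2 and the TIP60 knockout below the EP400 knockout. The same order held for MLLT11 (-1.76 ± 0.35), for the mitochondrial protein gene CHCHD10 (-1.74 ± 0.23, with EP400 at 101 and 87.1 FPKM and sgNeg2 at 122 and 104 FPKM), for the adhesion protein FLRT2 (-1.71 ± 0.37), for the secreted protein OLFML3 (-1.63 ± 0.23) and for SERPINH1, the collagen chaperone (-1.63 ± 0.21). ARHGAP20, a GTPase activating protein, had 2.22 and 1.35 FPKM in the TIP60 knockout and 8.14 and 8.51 FPKM in the EP400 knockout (-1.76 ± 0.28). PTCD1 was at 0.00369 and 3.07 FPKM with the 2 TIP60 guides and 5.46 and 5.09 FPKM in the EP400 knockout (-1.63 ± 0.39, adjusted p = 0.00859), and it overlaps a neighbouring gene, so its assignment of reads is uncertain. SERPINH1 and ARHGAP20 lie on the part of chromosome 11 past KAT5 that is described below.

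The sgNeg2 pair shows where the called genes stood relative to an undisturbed complex. Of the 894 genes that rose, sgNeg2 lay below both knockouts in 493 (55.1%), overlapped the EP400 pair only in 267 (29.9%), lay between the knockouts in 104 (11.6%) and overlapped the TIP60 pair only in 30 (3.36%). Of the 1535 genes that fell, sgNeg2 lay above both knockouts in 989 (64.4%), overlapped the EP400 pair only in 390 (25.4%), lay between the knockouts in 113 (7.36%) and overlapped the TIP60 pair only in 32 (2.08%). Over all tested genes sgNeg2 lay below both in 17.1%, above both in 26.6% and between them in 3.5%. It overlapped the EP400 pair only in 19.1% of all tested genes and the TIP60 pair only in 12.8%. In most of the called genes, then, the EP400 libraries were on the same side of sgNeg2 as the TIP60 libraries or overlapped sgNeg2, with the TIP60 libraries farther out. These positions are a description of 2 libraries a group and were not tested.

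Antioxidant genes rose in part. NRF2 is a transcription factor that KEAP1 holds back until oxidants or electrophiles release it, and its targets make glutathione, reduce thioredoxin, break down heme and store iron. Of 22 antioxidant and metallothionein genes listed, 16 were tested, and 9 rose and 0 fell, where 8.14% of all tested genes rose and 14.0% fell. Their median difference was 0.87, against -0.07 over all tested genes. The other 6 (ME1, MT1E, MT1F, MT1G, MT1M and MT3) did not pass the filter on low values.

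FTL, the ferritin light chain, had 9675 and 4515 FPKM in the TIP60 knockout, against 1755 and 1620 FPKM in the EP400 knockout and 1812 and 1542 FPKM with sgNeg2 (1.97 ± 0.33, adjusted p = 0.000851). FTH1, the ferritin heavy chain, had 1642 and 806 FPKM in the TIP60 knockout and 351 and 316 FPKM in the EP400 knockout (1.79 ± 0.29, adjusted p = 0.000747). Both ferritin genes have near-identical processed copies in the genome, so their absolute levels are uncertain. TXNRD1, thioredoxin reductase, had 306 and 217 FPKM in the TIP60 knockout, 99.7 and 86.5 FPKM in the EP400 knockout and 76.5 and 79.7 FPKM with sgNeg2 (1.46 ± 0.26, adjusted p = 0.00137). GCLM, the regulatory subunit of the enzyme that starts glutathione synthesis, had 21.6 and 21.7 FPKM in the TIP60 knockout, 9.02 and 7.58 FPKM in the EP400 knockout and 5.26 and 6.37 FPKM with sgNeg2 (1.29 ± 0.22, adjusted p = 0.000851). HMOX1, the heme oxygenase, had 67.2 and 35.5 FPKM in the TIP60 knockout and 20.6 and 16.2 FPKM in the EP400 knockout (1.37 ± 0.35, adjusted p = 0.0120). No TIP60 library of these 5 genes reached down to an EP400 library, while FTL, FTH1 and HMOX1 in the EP400 knockout lay close to or within the sgNeg2 range.

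OSGIN1 (1.62 ± 0.41), the sulfiredoxin SRXN1 (1.05 ± 0.25), the transporter ABCC3 (0.87 ± 0.14) and the peroxiredoxin PRDX1 (0.86 ± 0.29) rose as well. SQSTM1, the autophagy receptor p62, is also a textbook NRF2 target and was listed with the lysosomal and autophagy genes, of which 4 of 30 tested rose and 1 fell (1 and 1 without TIP60 guide 1, 10 and 0 without TIP60 guide 2). Among all tested genes, 8.14% rose and 14.0% fell. SQSTM1 had 1368 and 669 FPKM in the TIP60 knockout, against 268 and 246 FPKM in the EP400 knockout and 255 and 236 FPKM with sgNeg2 (1.89 ± 0.28, adjusted p = 0.000415). The rise did not extend to every member. NQO1, the quinone reductase, had 168 and 117 FPKM in the TIP60 knockout and 127 and 111 FPKM in the EP400 knockout (0.24 ± 0.26, adjusted p = 0.557). SLC7A11, the cystine importer, had 18.1 and 20.97 FPKM in the TIP60 knockout and 19.3 and 16.8 FPKM in the EP400 knockout (adjusted p = 0.655). The metallothionein MT2A had 1161 and 436 FPKM with TIP60 guides 1 and 2, a range that spans its EP400 values of 587 and 445 FPKM (adjusted p = 0.424). Guide 1 gave the higher TIP60 value in 8 of the 9 genes that rose, with GCLM as the exception. Without the library of guide 1, 5 of the 16 were called and the median was 0.54, and without that of guide 2, 12 were called and the median was 1.23. Without the library of EP400 guide 2, 5 were called and the median was 0.88.

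**Figure D2:**
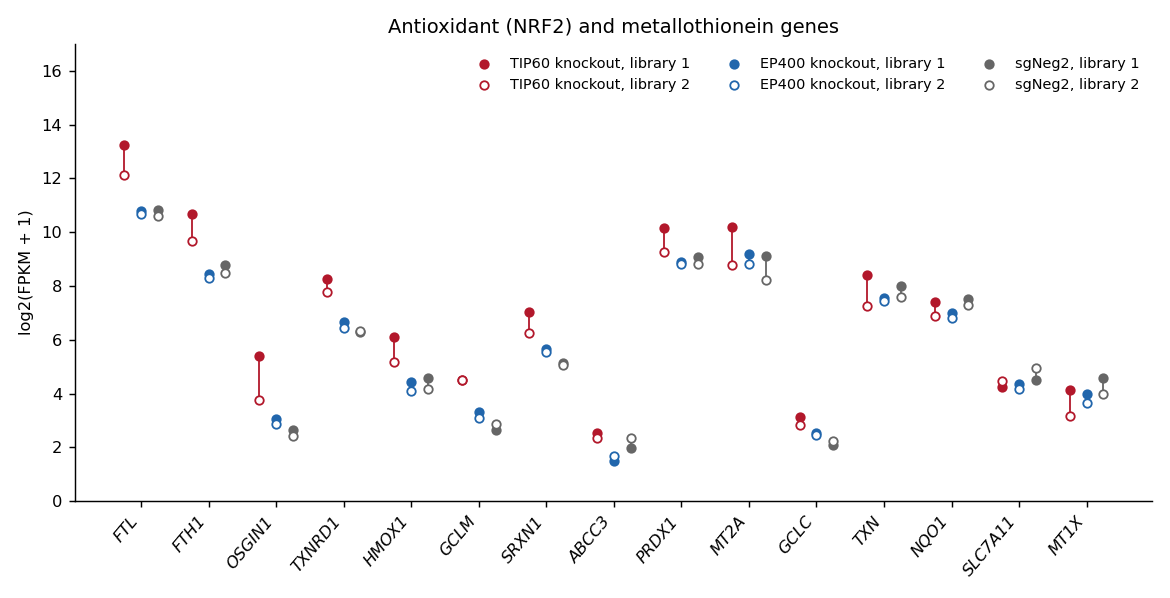
Level of 15 of the 16 tested antioxidant and metallothionein genes as log2(FPKM + 1) on the vertical axis, ordered by their difference; each point is 1 library (TIP60 red, EP400 blue, sgNeg2 grey; filled for 1, open for 2). For FTL the TIP60 points are at 9675 and 4515 FPKM and the EP400 points at 1755 and 1620 FPKM, while the TIP60 and EP400 points of NQO1, SLC7A11 and MT1X overlap.

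Promoter sequence was set beside these values because 9 of the antioxidant genes rose. NRF2 binds the antioxidant response element, whose core is TGACNNNGC, and this core and the TATA box TATAAA were searched on both strands in the 250 bases before each RefSeq gene start (build GRCh38.p14). A promoter was matched for 9078 of the 10981 tested genes. The core was present in 12.1% of all matched promoters, in 86 of the 719 of genes that rose, in 129 of the 1266 of genes that fell and in 4 of the 10 matched antioxidant genes. Those 4 were TXNRD1 and GCLM, which rose, and MT2A and MT1X, which were not called. They are shown here with STRA6, the gene with the largest rise. Among the 24 genes with the largest differences, the core was found in STRA6 and in MLLT11, which fell. Each sequence is read 5′ to 3′ along the gene and ends at the base before the start, and capitals mark matches to TGACNNNGC or TATAAA on either strand.
TXNRD1 (chr12:104215529-104215778, plus strand): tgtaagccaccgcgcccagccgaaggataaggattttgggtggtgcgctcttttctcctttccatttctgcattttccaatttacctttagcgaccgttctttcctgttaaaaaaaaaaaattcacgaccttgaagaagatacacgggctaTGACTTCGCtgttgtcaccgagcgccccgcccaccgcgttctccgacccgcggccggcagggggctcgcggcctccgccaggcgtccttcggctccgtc
GCLM (chr1:93909431-93909680, minus strand): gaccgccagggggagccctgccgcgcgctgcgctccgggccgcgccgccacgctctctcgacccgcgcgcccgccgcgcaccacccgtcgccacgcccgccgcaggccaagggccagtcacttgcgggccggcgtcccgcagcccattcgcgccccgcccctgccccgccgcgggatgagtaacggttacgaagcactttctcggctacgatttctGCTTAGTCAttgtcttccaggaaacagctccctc
MT2A (chr16:56608334-56608583, plus strand): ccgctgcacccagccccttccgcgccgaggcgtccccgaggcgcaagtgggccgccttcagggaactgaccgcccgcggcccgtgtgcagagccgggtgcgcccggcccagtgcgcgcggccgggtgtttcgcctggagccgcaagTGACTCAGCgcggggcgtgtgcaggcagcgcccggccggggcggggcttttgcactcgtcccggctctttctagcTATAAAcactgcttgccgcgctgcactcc
MT1X (chr16:56682220-56682469, plus strand): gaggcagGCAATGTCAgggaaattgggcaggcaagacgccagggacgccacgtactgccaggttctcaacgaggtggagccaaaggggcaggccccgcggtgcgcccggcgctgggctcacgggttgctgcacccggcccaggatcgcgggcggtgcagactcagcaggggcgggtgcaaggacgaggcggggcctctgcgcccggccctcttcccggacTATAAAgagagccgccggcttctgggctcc
STRA6 (chr15:74212260-74212509, minus strand): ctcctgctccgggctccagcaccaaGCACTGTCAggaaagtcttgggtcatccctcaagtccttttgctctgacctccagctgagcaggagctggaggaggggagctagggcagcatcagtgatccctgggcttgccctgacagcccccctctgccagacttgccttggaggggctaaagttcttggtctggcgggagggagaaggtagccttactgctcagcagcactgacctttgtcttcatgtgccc
The core of TXNRD1 begins 99 bases before the start, on the strand of the gene. That of GCLM begins 34 bases before the start and reads on the opposite strand, as do those of MT1X (243 bases) and STRA6 (225 bases). In MT2A the match begins 104 bases before the start and is TGACTCAGC, which also contains the AP-1 site TGANTCA, an overlap found in 29 of the matched promoters. The TATAAA letters lie 29 bases before the start in MT2A and 30 bases before it in MT1X. No match to either motif was found in this window of FTL, OSGIN1 or SRXN1.

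Across all called genes, TATAAA was, of the 5 motifs searched, the motif whose share differed most in ratio between directions. It was present in 33 of the 167 matched promoters of genes called higher by at least 2-fold (19.8%) and in 9 of the 135 of genes called lower by at least 2-fold (6.67%), against 5.01% of all matched promoters. The antioxidant core was in 26 of the 167 (15.6%) and in 12 of the 135 (8.89%), against 12.1% of all. Among all 719 matched genes that rose the share with TATAAA was 10.3%, and among the 1266 that fell it was 3.48%. The AP-1 letters TGANTCA were in 7.78% of promoters of genes higher by at least 2-fold, in 2.96% of those lower by at least 2-fold and in 3.58% of all. CCAAT was in 40.1% and 22.2% of these promoters, against 35.9% of all, and the GC box GGGCGG in 52.7% and 71.1%, against 68.5% of all. Promoters of genes higher by at least 2-fold held a median of 12 CG pairs, those of genes lower by at least 2-fold 19, and all matched promoters 21. The sets include genes that passed the filter through 1 group alone: 125 of the 894 that rose, through the TIP60 libraries, and 77 of the 1535 that fell, through the EP400 libraries. The shares were not taken without them. A match is a description of letters, and none of these shares was tested.

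Keratin genes were the other group with a high median. Of 24 epidermal and keratin genes listed, 8 were tested, and 6 rose and 0 fell, where 8.14% of all tested genes rose and 14.0% fell. The filter favours genes that are high in one group here: with an FPKM of at least 1 required in every library, 6 were tested and 4 rose. KRT80, an epithelial keratin, had 11.7 and 13.2 FPKM in the TIP60 knockout, 2.48 and 2.55 FPKM in the EP400 knockout and 1.44 and 1.37 FPKM with sgNeg2 (1.94 ± 0.27, adjusted p = 0.000295). KRT7 had 8.50 and 3.66 FPKM in the TIP60 knockout and 1.49 and 1.14 FPKM in the EP400 knockout (1.53 ± 0.26), and KRT8 had 33.6 and 19.4 FPKM in the TIP60 knockout and 13.6 and 14.1 FPKM in the EP400 knockout (0.84 ± 0.20). The defining epithelial markers EPCAM, CDH1, CLDN4, CLDN7, KRT5, KRT14, ESRP1, ESRP2 and GRHL2 summed to 0.948 to 0.965 FPKM in the TIP60 libraries, against 0.857 to 1.26 FPKM in the EP400 libraries and 1.23 to 1.24 FPKM in the sgNeg2 libraries. Of the 8 tested keratin genes, 3 were called without the library of TIP60 guide 1 and 3 without that of EP400 guide 2, and the 4 libraries of the contrast fitted alone gave 4.

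Stress, growth and inflammatory transcription genes rose in part. MYC had 159 and 152 FPKM in the TIP60 knockout, against 65.1 and 66.2 FPKM in the EP400 knockout and 36.4 and 41.3 FPKM with sgNeg2 (1.23 ± 0.18, adjusted p = 0.000373). The 2 guides of each target gave nearly the same MYC level, and the 3 groups did not overlap. MYC was counted among 21 tested immediate early genes, of which 6 rose and 1 fell (median 0.27), and among 40 MYC and ribosome biogenesis genes, of which 2 rose and 3 fell (median -0.05, or 0.03 after median scaling). Among all tested genes, 8.14% rose and 14.0% fell. ODC1, a direct MYC target that starts polyamine synthesis, rose (0.73 ± 0.16), while RRS1, a ribosome assembly factor, fell (-1.02 ± 0.16). KLF2, a zinc finger factor of the immediate early group, had 22.1 and 11.9 FPKM in the TIP60 knockout, 3.60 and 2.96 FPKM in the EP400 knockout and 0.859 and 0.734 FPKM with sgNeg2 (2.02 ± 0.42, adjusted p = 0.00356). FOS and EGR1, the best known immediate early factors, were not called (adjusted p = 0.340 and 0.700). Without either EP400 library, 3 of the 21 immediate early genes were called higher and 0 lower.

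Of 15 tested inflammatory and NF-kB genes, 7 rose and 1 fell (median 0.48), out of 25 listed. For this list and those that follow here, the shares over all tested genes were 8.14% higher and 14.0% lower. CXCL8, the neutrophil chemokine, had 108 and 56.5 FPKM in the TIP60 knockout, 42.2 and 37.1 FPKM in the EP400 knockout and 22.7 and 22.8 FPKM with sgNeg2 (0.97 ± 0.28, adjusted p = 0.0215). The apoptosis inhibitor BIRC3 (1.00 ± 0.24) and the cytokine LIF (0.82 ± 0.22) rose, and RELB, an NF-kB subunit, fell (-0.54 ± 0.16). The inflammatory median was 0.13 without TIP60 guide 1, 0.72 without TIP60 guide 2, 0.56 without EP400 guide 1 and 0.40 without EP400 guide 2. With the 4 libraries of the contrast fitted alone, 1 of the 15 inflammatory genes was called higher and 0 lower, against 550 and 990 of all 10981 tested genes. Most of the calls of higher inflammatory genes were lost without TIP60 guide 1 or without either EP400 library. With 1 library left, a group has no spread of its own. Among 21 tested YAP/TEAD genes 5 rose and 1 fell (median 0.22): besides ANKRD1 these were DLC1, a GTPase activating protein with 38.99 and 43.3 FPKM in the TIP60 knockout and 14.9 and 11.9 FPKM in the EP400 knockout (1.55 ± 0.22), IGFBP3 (1.45 ± 0.26), GADD45B (1.28 ± 0.23) and AMOTL2 (0.76 ± 0.24). The canonical targets CTGF and CYR61 had 437 and 353 FPKM and 240 and 211 FPKM in the TIP60 knockout, against 287 and 249 FPKM and 181 and 163 FPKM in the EP400 knockout, and were not called (adjusted p = 0.166 and 0.242). Of 25 tested hypoxia and glycolysis genes 5 rose and 1 fell (median 0.14), led by PFKFB4, which sets fructose 2,6-bisphosphate, with 9.87 and 11.2 FPKM in the TIP60 knockout, 3.72 and 3.86 FPKM in the EP400 knockout and 7.73 and 7.02 FPKM with sgNeg2 (1.26 ± 0.15, adjusted p = 0.000108). Without TIP60 guide 1, or without either EP400 library, 1 hypoxia or glycolysis gene was called higher.

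HOX genes lay on the other side. HOX genes encode homeobox factors that set position along the body axis, and their clusters are classic targets of chromatin regulators. Of 34 listed, 21 were tested, and 0 rose and 8 fell (38.1%, against 14.0% of all tested genes), with a median difference of -0.37. HOXB7 had 27.9 and 29.2 FPKM in the TIP60 knockout, against 57.7 and 63.7 FPKM in the EP400 knockout and 63.4 and 56.1 FPKM with sgNeg2 (-1.06 ± 0.17, adjusted p = 0.000747). HOXB4 had 32.6 and 43.4 FPKM in the TIP60 knockout, 61.5 and 75.1 FPKM in the EP400 knockout and 57.3 and 59.5 FPKM with sgNeg2 (-0.83 ± 0.18). HOXB6 had 10.96 and 15.8 FPKM in the TIP60 knockout and 21.6 and 23.6 FPKM in the EP400 knockout (-0.73 ± 0.15). For these 3 genes the EP400 libraries overlapped the sgNeg2 libraries or stood above them, and the TIP60 libraries were below both. The fall lay mainly in 1 cluster: counting every tested HOX gene, 7 of 9 HOXB genes on chromosome 17 fell (median -0.73), 2 of 8 HOXC genes on chromosome 12 fell (median -0.33), and 0 of 4 HOXD genes on chromosome 2 and 0 of 2 HOXA genes on chromosome 7 did. The difference between clusters was not tested. Of the 21 listed genes, 4 were called lower and 1 higher without the library of TIP60 guide 1, and 2 were called lower without that of EP400 guide 2.

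Lipid synthesis genes fell in part. SREBF1 encodes SREBP1, the transcription factor that drives fatty acid synthesis, and had 10.2 and 14.2 FPKM in the TIP60 knockout, against 28.4 and 29.2 FPKM in the EP400 knockout and 43.6 and 41.5 FPKM with sgNeg2 (-1.20 ± 0.14, adjusted p = 9.99e-05). SCD, the fatty acid desaturase, had 91.3 and 166 FPKM in the TIP60 knockout and 265 and 258 FPKM in the EP400 knockout (-1.08 ± 0.22, adjusted p = 0.00266). In all, 8 of 27 tested cholesterol and fatty acid genes fell (29.6%, against 14.0% of all tested genes) and 1 rose (median -0.24). Those that fell included ACACA and FASN, the carboxylase and the synthase of fatty acid synthesis (-0.70 ± 0.13 and -0.62 ± 0.17), SREBF2 (-0.58 ± 0.14) and the sterol enzymes CYP51A1 (-0.70 ± 0.13) and DHCR7 (-0.64 ± 0.13). SQLE, another sterol enzyme, rose (0.47 ± 0.16). The count of genes that fell was 5 without TIP60 guide 1 and 5 without EP400 guide 2.

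Several other chromatin enzymes fell in the TIP60 knockout. Of 18 tested remodelling ATPases outside the complex, 0 rose and 6 fell (33.3%, against 14.0% of all tested genes; median -0.24). CHD3, a subunit of the NuRD complex, had 9.73 and 10.3 FPKM in the TIP60 knockout, 23.8 and 21.8 FPKM in the EP400 knockout and 40.3 and 45.4 FPKM with sgNeg2 (-1.11 ± 0.16, adjusted p = 0.000316). SMARCA1, an ISWI ATPase, had 16.6 and 19.5 FPKM in the TIP60 knockout and 32.7 and 32.8 FPKM in the EP400 knockout (-0.83 ± 0.14). SMARCA4, the BRG1 ATPase, and CHD4 differed by -0.60 ± 0.12 and -0.56 ± 0.13. Of 23 other acetyltransferase and bromodomain genes, 1 rose and 6 fell (26.1%, median -0.21), among them JADE2 (-0.76 ± 0.17), TADA3 (-0.64 ± 0.18) and CREBBP (-0.51 ± 0.17), while the bromodomain gene BRD2 rose (0.57 ± 0.13). After median scaling 2 of these 23 genes were called lower (8.7%) and 4 of the 18 ATPases (22.2%), against 10.8% of all tested genes. The excess of falls in the acetyltransferase and bromodomain list thus depended on scaling. H2AFZ, which encodes H2A.Z, the histone that EP400 deposits, had 698 and 495 FPKM in the TIP60 knockout, 332 and 333 FPKM in the EP400 knockout and 414 and 305 FPKM with sgNeg2 (0.82 ± 0.24, adjusted p = 0.0235). ANP32E, a chaperone that removes H2A.Z from chromatin, had 7.92 and 7.79 FPKM in the TIP60 knockout, 15.3 and 14.6 FPKM in the EP400 knockout and 20.9 and 21.7 FPKM with sgNeg2 (-0.85 ± 0.22, adjusted p = 0.0142). H2AFZ kept its call in 9 of 13 alternative fits and ANP32E in 10. The acetyltransferase and bromodomain median was -0.01 without TIP60 guide 1, -0.38 without TIP60 guide 2, -0.24 without EP400 guide 1 and -0.17 without EP400 guide 2. The ATPase median was -0.10, -0.47, -0.25 and -0.28 in the same order. In both lists fewer genes were called lower without TIP60 guide 1 or without either EP400 library.

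**Figure D3:**
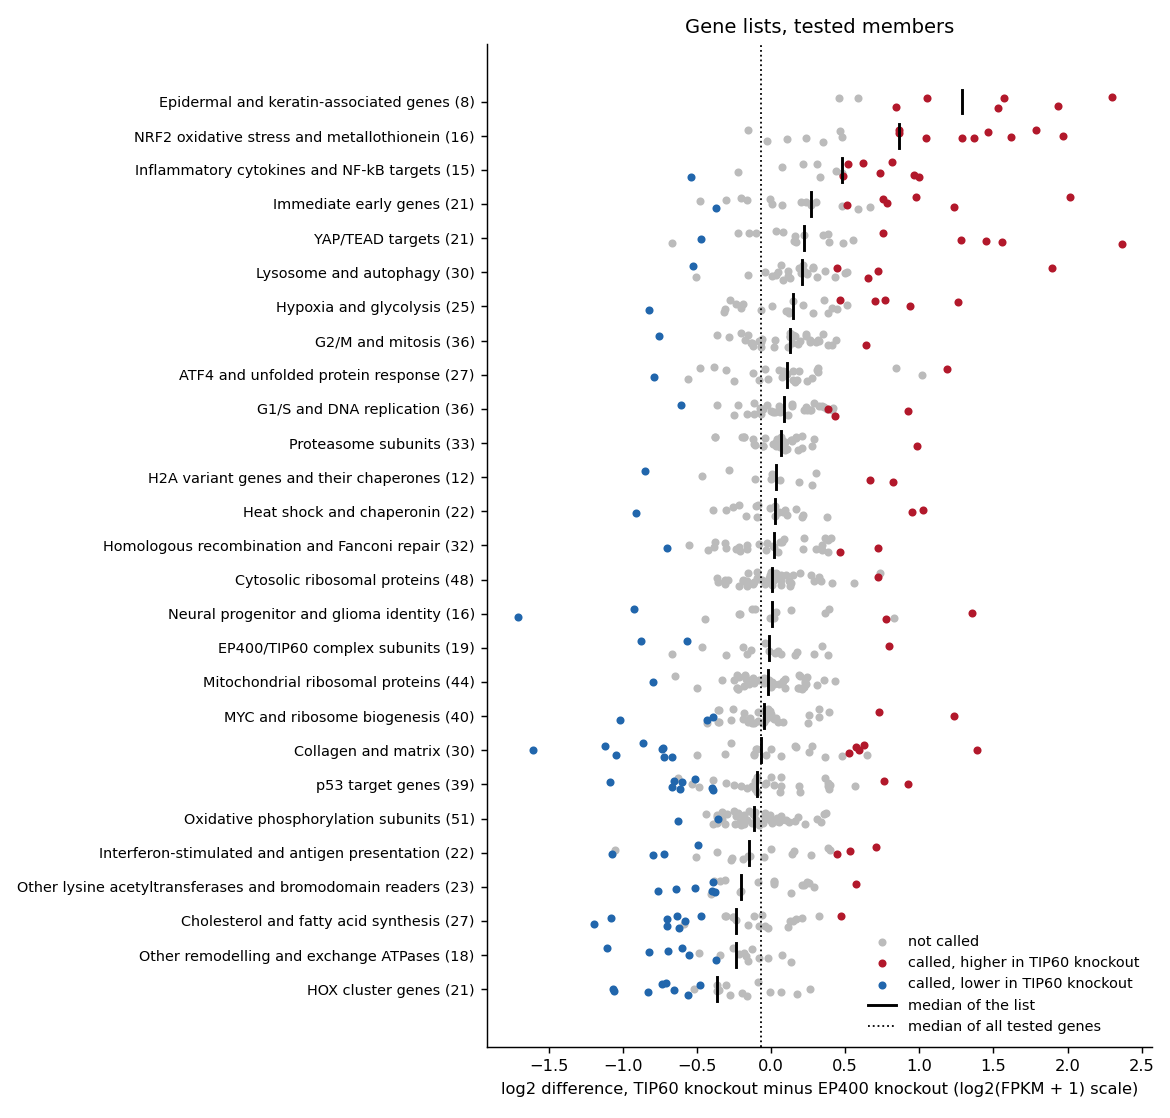
Difference between the TIP60 and the EP400 knockout on the log2(FPKM + 1) scale for the tested members of each gene list (number in brackets); each point is 1 gene, red where it rose, blue where it fell and grey where it was not called, a bar marks the median of the list and the dotted line the median of all tested genes (-0.07). The antioxidant list (median 0.87) and the keratin list (1.29) lie farthest to the right, and the HOX list (-0.37) farthest to the left.

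The p53 network, which the title of the study names, did not move as a block. CDKN1A, the p21 cell cycle inhibitor, had 238 and 154 FPKM in the TIP60 knockout, against 239 and 235 FPKM in the EP400 knockout and 223 and 207 FPKM with sgNeg2 (-0.31 ± 0.23, adjusted p = 0.372). MDM2, the p53 ubiquitin ligase, had 38.9 and 29.7 FPKM in the TIP60 knockout, 37.8 and 35.5 FPKM in the EP400 knockout and 25.4 and 25.6 FPKM with sgNeg2 (-0.11 ± 0.18, adjusted p = 0.713). Neither difference was called, which does not show that the levels were equal. Of 39 tested p53 targets, 2 rose and 8 fell (median -0.10, or -0.02 after median scaling); the 20.5% that fell stood near the 14.0% of all tested genes. TP53I3 had 17.7 and 11.9 FPKM in the TIP60 knockout and 33.8 and 30.1 FPKM in the EP400 knockout (-1.09 ± 0.21). The death receptor FAS (-0.66 ± 0.13) and the stress gene SESN1 (-0.67 ± 0.13) also fell, while GADD45A (0.76 ± 0.19) and GDF15 (0.92 ± 0.27) rose. Without TIP60 guide 2 the counts were 5 higher and 5 lower, and without either EP400 library 0 higher and 3 lower.

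Matrix genes moved both ways. Of 30 tested, 5 rose and 8 fell (median -0.07, or 0.02 after median scaling), and without either EP400 library 1 was called higher and 3 lower. Among all tested genes, 8.14% rose and 14.0% fell. FN1, fibronectin, had 987 and 1354 FPKM in the TIP60 knockout, 463 and 420 FPKM in the EP400 knockout and 243 and 348 FPKM with sgNeg2 (1.39 ± 0.25, adjusted p = 0.00124). TNC, tenascin C, had 14.96 and 19.5 FPKM in the TIP60 knockout, 49.9 and 58.9 FPKM in the EP400 knockout and 40.9 and 49.9 FPKM with sgNeg2 (-1.61 ± 0.22, adjusted p = 0.000211). The EP400 knockout thus stood above the TIP60 knockout for tenascin C and below it for fibronectin, with no overlap in either. In the neural progenitor and glioma list, 2 of 16 tested genes rose and 2 fell (median 0.00). The 12.5% that fell stood near the 14.0% of all tested genes. Besides SOX2, the growth factor receptor PDGFRA fell (-0.93 ± 0.15). SOX11, another SOX factor, rose, with 6.41 and 5.42 FPKM in the TIP60 knockout, 3.03 and 3.05 FPKM in the EP400 knockout and 3.04 and 2.99 FPKM with sgNeg2 (0.77 ± 0.14, adjusted p = 0.00163), as did the inhibitor of differentiation ID1 (1.35 ± 0.38), whose call was lost without TIP60 guide 1 or without EP400 guide 2. In the interferon and antigen presentation list, 3 of 22 tested genes rose and 4 fell, with IRF9, a subunit of the interferon-stimulated complex, at 9.0 and 6.82 FPKM in the TIP60 knockout and 17.7 and 17.4 FPKM in the EP400 knockout (-1.07 ± 0.16). The 18.2% of this list that fell stood near the 14.0% of all tested genes. The counts were 1 higher and 4 lower without TIP60 guide 1, 3 and 1 without TIP60 guide 2, 0 and 1 without EP400 guide 1 and 0 and 2 without EP400 guide 2.

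Division, repair and housekeeping genes gave few calls, where 8.14% of all tested genes rose and 14.0% fell. The counts were 1 higher and 1 lower of 36 mitosis genes (median 0.13), 3 and 1 of 36 replication genes (0.09), 2 and 1 of 32 homologous recombination genes (0.02), 1 and 0 of 48 cytosolic ribosomal proteins (0.01), 0 and 1 of 44 mitochondrial ribosomal proteins (-0.02), 0 and 2 of 51 oxidative phosphorylation subunits (-0.12) and 1 and 0 of 33 proteasome subunits (0.06). The repair genes depended on the guide left out: their median was 0.04 without TIP60 guide 1 and -0.04 without TIP60 guide 2. Over all tested genes the median was -0.08 and -0.06 in the same fits. After median scaling 8 of the 36 replication genes were called higher, against 1286 of all 10981 tested genes. Quantile normalization gave 13 of the 51 oxidative phosphorylation subunits and 9 of the 48 cytosolic ribosomal proteins as lower, against 13.9% of all tested genes. ORC6, a subunit of the origin recognition complex, had 22.9 and 20.2 FPKM in the TIP60 knockout and 10.8 and 10.97 FPKM in the EP400 knockout (0.92 ± 0.18), while the helicase subunit MCM2 fell (-0.61 ± 0.17). PSMD2, a proteasome regulatory subunit, had 337 and 245 FPKM in the TIP60 knockout and 150 and 140 FPKM in the EP400 knockout (0.98 ± 0.16). HSP90AA1, the inducible cytosolic chaperone, rose (1.03 ± 0.19) and the small heat shock gene HSPB1 fell (-0.91 ± 0.25), with 2 of 22 heat shock and chaperonin genes higher and 1 lower. CEBPB rose (1.19 ± 0.29) and XBP1 fell (-0.79 ± 0.24) in the list of 27 unfolded protein genes.

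The position of genes along the chromosomes carried a further difference. Chromosome 11, which holds KAT5, had 190 of its 618 tested genes lower in the TIP60 knockout (30.7%), while the other chromosomes had between 7.28% and 19.2%. By RefSeq gene order, the 292 tested genes past KAT5 towards the q end held 122 that fell (41.8%) and 8 that rose (2.74%), with a median difference of -0.36, or -0.28 after median scaling. The 325 tested genes before KAT5 held 67 that fell (20.6%) and 20 that rose (6.15%), with a median of -0.14. On all chromosomes other than 11 and 12, 13.2% fell and 8.2% rose, and the median was -0.06. The genes nearest to KAT5 on its q side did not stand out from those farther away: 40.0% of the nearest 50, 40.0% of the next 50 and 34.0% of the last 50 genes of the chromosome fell. The fall was not confined to the q side of KAT5. At the opposite end, 15 of the first 50 genes fell and 5 rose, with a median of -0.28, against -0.26 in the last 50. Of the 50 genes just before KAT5, 12 fell and 0 rose (median -0.24), and of the 50 before those 8 fell and 3 rose (median -0.18).

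Chromosome 12, which holds EP400, showed a small segment of the opposite direction. Only 14 tested genes lie past EP400 towards the q end, and 8 of them rose and 0 fell (median 0.41), against 9.61% higher and 9.61% lower among the 583 tested genes before EP400. ZNF268 had 6.20 and 7.76 FPKM in the TIP60 knockout, 2.76 and 2.89 FPKM in the EP400 knockout and 2.68 and 2.46 FPKM with sgNeg2 (1.05 ± 0.15, adjusted p = 0.000353). ANKLE2, a nuclear envelope protein, had 34.7 and 31.1 FPKM in the TIP60 knockout, 21.5 and 21.5 FPKM in the EP400 knockout and 22.5 and 24.6 FPKM with sgNeg2 (0.59 ± 0.12). The other called genes were DDX51, NOC4L, POLE, ZNF26, ZNF140 and ZNF10, with differences from 0.38 to 0.57. For ZNF268 and ANKLE2 the sgNeg2 libraries lay closer to the EP400 than to the TIP60 libraries. For ZNF140 they lay above the EP400 libraries (4.64 and 3.94 against 2.92 and 3.37 FPKM). FBRSL1, PXMP2, PGAM5, GOLGA3, CHFR and ZNF84 were not called.

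**Figure D4:**
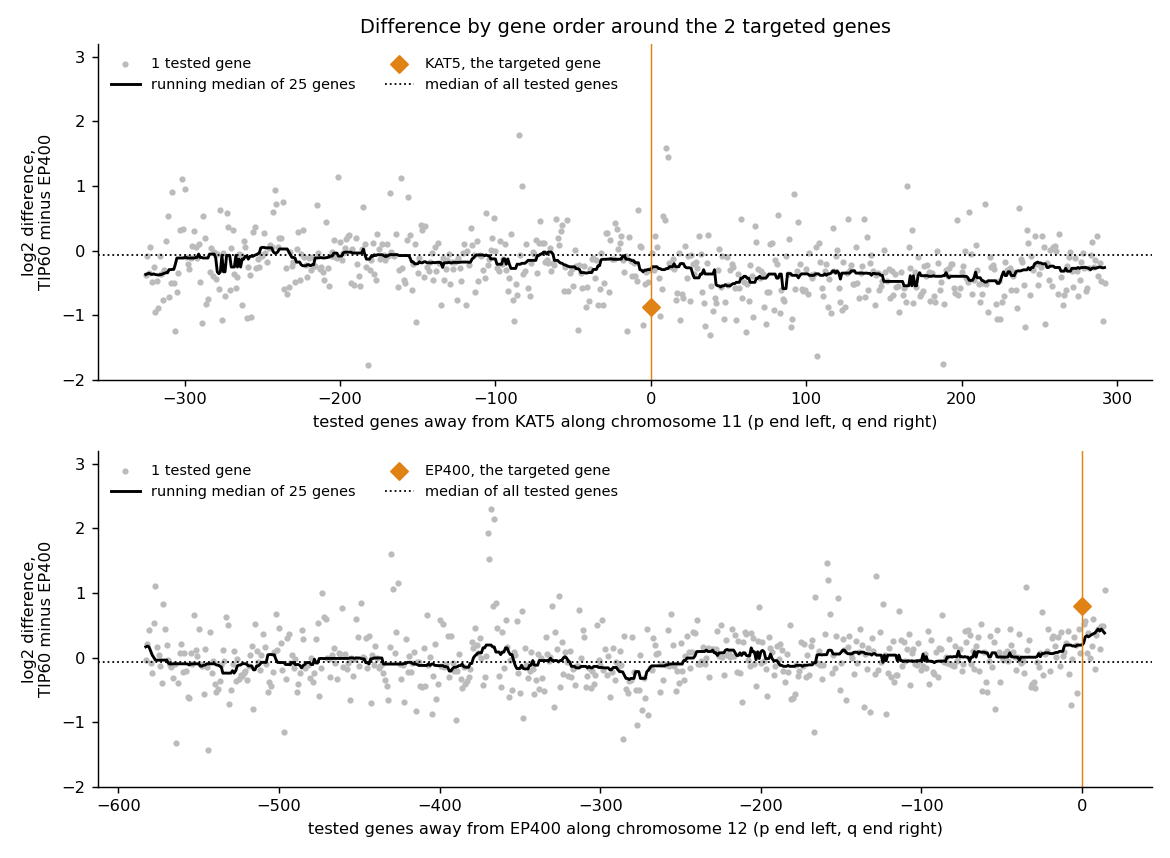
Difference between the TIP60 and the EP400 knockout (log2(FPKM + 1) scale) against position in gene order, counted in tested genes from KAT5 on chromosome 11 (top) and from EP400 on chromosome 12 (bottom); grey points are single genes, the black line is a running median of 25 genes, the orange diamond is the targeted gene and the dotted line the median of all tested genes. Past KAT5 the running median stays below the dotted line to the q end, and past EP400 it rises above it over the last 14 genes.

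The libraries of the 2 knockouts stood apart in these segments in opposite directions. Each library was expressed as the median deviation of the segment's genes from the mean of the section's 20 libraries, minus the same for the other chromosomes. Past KAT5 the TIP60 libraries were at -0.23 and -0.35, against 0.03 and 0.03 for the EP400 libraries, and the other 16 libraries lay between -0.01 and 0.07. Before KAT5 the TIP60 libraries were at -0.07 and -0.21, against -0.04 and -0.04 for the EP400 libraries, with the other 16 between -0.03 and 0.08. Past EP400 the TIP60 libraries were at 0.19 and 0.21 and the EP400 libraries at -0.24 and -0.14, with the other 16 between -0.18 and 0.13. The chromosome 11 segment was thus low in the TIP60 libraries relative to every other library of the section. On chromosome 12 both TIP60 libraries lay above the other 16, while EP400 guide 1 lay below them and EP400 guide 2 within their range. Other libraries were low there too: the GAS41 knockout libraries were at -0.18 and -0.17 and the TRRAP knockout libraries at -0.12 and -0.17. The gene of GAS41, YEATS4, also lies on chromosome 12, and the GAS41 libraries were low before EP400 as well (-0.14 and -0.15). The TRRAP libraries were at 0.04 and 0.04 before EP400. What moves these segments was not tested. Both segment medians kept their sign in all 13 alternative fits. Without either EP400 library fewer genes of both segments were called, but fewer of all tested genes were called then too.

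**Figure D5:**
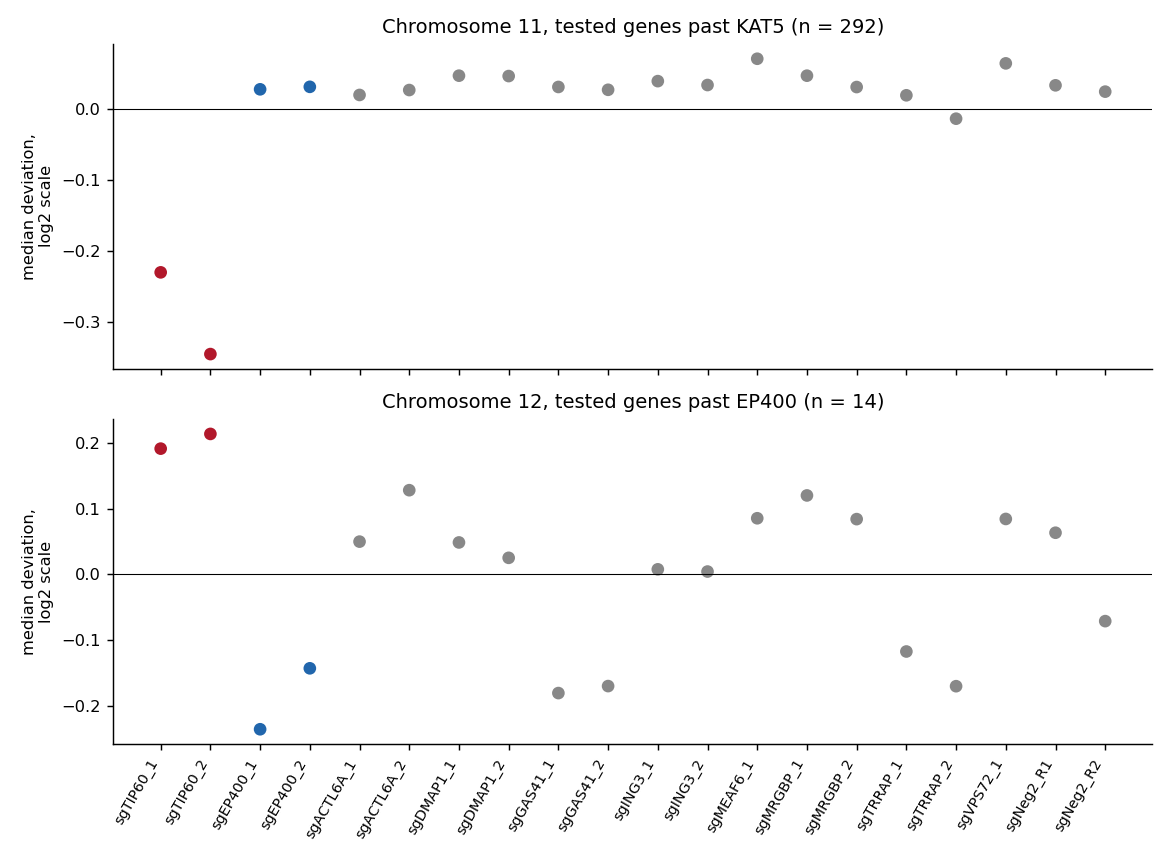
Median deviation of the 292 tested genes past KAT5 (top) and of the 14 past EP400 (bottom) from the mean of the section, minus that of the other chromosomes, on the log2 scale; each point is 1 of 20 libraries (TIP60 red, EP400 blue, others grey). On chromosome 11 the TIP60 libraries (-0.23 and -0.35) lie below all others, and on chromosome 12 they lie above all others (0.19 and 0.21).

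Several called genes from the groups above lie in these segments. Past KAT5 these are SERPINH1, ARHGAP20, DHCR7, ATM of the repair list and AMOTL1 of the YAP/TEAD list, which fell, and BIRC3 and H2AFX, which rose. H2AFX belongs to the H2A variant and chaperone list, of which 2 of 12 tested genes rose and 1 fell, and 0 were called when any library other than that of TIP60 guide 2 was left out. ATM, the kinase of the double-strand break response, had 2.31 and 3.72 FPKM in the TIP60 knockout, 5.57 and 5.31 FPKM in the EP400 knockout and 4.54 and 7.18 FPKM with sgNeg2 (-0.70 ± 0.19, adjusted p = 0.0147). H2AFX, the histone variant phosphorylated at such breaks, had 92.8 and 56.4 FPKM in the TIP60 knockout and 44.9 and 45.6 FPKM in the EP400 knockout (0.67 ± 0.21, adjusted p = 0.0351). POLE, the leading strand polymerase, lies past EP400, with 10.2 and 10.9 FPKM in the TIP60 knockout, 7.81 and 7.93 FPKM in the EP400 knockout and 9.58 and 8.62 FPKM with sgNeg2 (0.38 ± 0.11, adjusted p = 0.0217). Transcript length moved with the TIP60 libraries too: in the longest of 5 equal length classes the median gene was at -0.20 with TIP60 guide 1 and -0.04 with guide 2, relative to the EP400 mean, and in the shortest class at -0.00 and -0.10. The share of genes that fell was 15.0% in the longest class and 12.4% in the shortest, and the part of length in the results was not tested.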

How the data were processed

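Per the submitters' processing notes, TopHat2, Cufflinks, Cuffdiff and the hg19 build were used, without versions or roles. The authors deposited FPKM values for 19102 genes; no counts are given, and 0 columns belonged to other samples. Columns were matched to libraries by name. Of the 22 columns in the section normalized with sgNeg2, 2 held identical values under different labels and were left out, so 20 columns in 11 groups entered the fit. Values were taken as log2(FPKM + 1) and fitted with limma 3.58.1 in R 4.3.3 (a coefficient for each target, eBayes with trend, 9 residual and 6.36 prior degrees of freedom, two-sided). The other groups add to the spread only. A gene was tested where 2 or more of the 4 columns reached 1 FPKM, and called where its p, after Benjamini-Hochberg adjustment over all tested genes, was under 0.05. The code was tested on data with known answers. The members and gene lists were chosen with earlier results of these data known. Named genes were the subunits, CDKN1A and MDM2, the 12 largest called differences each way (mean of at least 5 FPKM in the higher group, no overlap) and up to 4 called list members with the smallest adjusted p; other list members and the genes past EP400 were named after their values were seen. Gene order and promoters came from RefSeq (GRCh38.p14), which placed 10939 of the tested genes on a chromosome and is not the build of the files. A few list members are not reported here by name. Alternative fits changed the samples, scaling, pseudocount, filter, trend, replicate block or left out a library. Replicate numbers are guide numbers of different genes, and same-numbered libraries did not deviate together (correlation -0.01), so the samples were not paired. Intervals are not given for single FPKM values, since only relative depth could be read.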

Additional observations from a re-analysis of the deposited data

How the results depend on the processing

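KAT5 and EP400 kept their direction and their call in all 13 alternatives, and no called named gene changed direction; the uncalled CDKN1A, MDM2, EPC2, ING3, YEATS4, RUVBL2, MBTD1 and ACTB changed sign in at least 1 alternative. The count of called genes (2429; 894 higher and 1535 lower) was 1540 (550 higher, 990 lower) when only the 4 libraries were fitted, with 1452 genes shared, and quantile normalization gave 1367 higher. With a library left out, the counts lay between 975 and 2404 in all, 378 and 999 higher and 597 and 1405 lower, the lowest without EP400 guide 2 and the highest totals without TIP60 guide 2. With guide number as a replicate block, 2568 genes were called, 2402 of them shared, and 127 of the 128 named genes kept their side of the threshold; the guides are not paired by design. The other scalings, pseudocounts and filters gave between 2129 and 2896 calls. Every gene called in an alternative and in the reported fit had the same direction in both. Of 110 named genes that were called, 52 were called in all 13 alternatives, among them 14 of the 24 with the largest differences. A gene that an alternative did not test counts as not called there. The filter of at least 1 FPKM in all 4 libraries left out 8 of the 12 genes with the largest rise, and PTCD1, before the test. Leaving out TIP60 guide 1 ended 30 named calls and leaving out EP400 guide 2 ended 40; the causes were not tested. With 1 library left in a group, that library was assumed to vary like the other groups.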
